A study of Mus musculus with 20 samples.

Results

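The proteasome is the large protease that degrades proteins tagged with ubiquitin. Its genes were followed here in PS19 mouse cerebral cortex. The PS19 transgene is human tau (MAPT) with the P301S mutation, under the promoter of the prion protein gene Prnp. Members were all genes of the messenger RNA table whose symbol begins with Psm, a letter from a to g and a digit. This rule takes 50 genes with 96 transcripts, out of 21949 genes with 50660 transcripts, and uses no measured value. Of the 50, 49 encode subunits, activators, an inhibitor or assembly chaperones of the proteasome. The remaining gene, Psmc3ip, matched by its name alone and encodes a cofactor of meiotic recombination.

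The 4 groups were transgenic mice aged 10 months (TG10M), transgenic mice aged 3 months (TG03M), wild-type mice aged 10 months (WT10M) and wild-type mice aged 3 months (WT03M), with 5 libraries each. All were (C57BL/6 x C3H)F1 mice, and total RNA came from frozen cortex with an RNA integrity number above 7. The Prnp promoter is not limited to neurons, but which cells express the transgene was not measured here. Sex and batch are not given in the labels. Nothing in the labels ties a replicate to its own animal, and a p therefore covers only the spread among these libraries, which may be technical.

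A core of stacked rings of alpha and beta subunits holds the active sites of the proteasome. Access to them is controlled by a regulatory particle, the 19S, whose ATPases unfold the substrate, or by other activator caps. Among the beta subunits that cut peptide bonds, Psmb6 acts after acidic, Psmb7 after basic and Psmb5 after hydrophobic residues. Interferon induces replacements for them, Psmb9 for Psmb6, Psmb10 for Psmb7 and Psmb8 for Psmb5, and the resulting immunoproteasome feeds peptides to MHC class I molecules. In healthy brain these replacements are known to be scarce, and tau is among the known substrates of the proteasome.

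Values are FPKM, fragments per kilobase of transcript scaled to the mapped fragments of the library, summed over the transcripts of a gene. Depth, estimated from the steps between low values, was 23.5 to 31.3 M (mega) fragments per library. Tests are differences of log2(FPKM + 0.5) in limma over 13722 genes with a mean of at least 0.5 FPKM, and calls are at an adjusted p (Benjamini-Hochberg) under 0.05. The ± sign gives the SD of the 5 libraries in a group. TG10M replicates 1 and 5 and WT10M replicate 5 stood apart from the 17 other libraries on the first principal component, which held 23.9% of the variance. The main results on members are also given without them. Markers of neurons were present in every group: Rbfox3, Snap25, Syt1, Slc17a7, Gad1, Gad2 and Camk2a summed to 2476 to 2816 FPKM in TG10M, 2569 to 2928 in TG03M, 2466.5 to 2895 in WT10M and 2588 to 2907 in WT03M. Snap25 made up most of this sum. At 10 months 0 of the 7 were called in limma and 2 were at a p under 0.05 before adjustment, against 14.1% of all tested genes. Camk2a had the smallest p (132 ± 30.5 FPKM in TG10M and 193 ± 52.0 FPKM in WT10M, adjusted p = 0.228). With age in transgenic cortex 4 of the 7 were at a p under 0.05 before adjustment, against 16.1% of all tested genes, and 0 were called. The median difference of the 7 in TG10M against TG03M was -0.19.

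Most members were abundant. Their summed level was 3056 ± 127 FPKM in TG10M, 2974 ± 123 in TG03M, 2979 ± 124 in WT10M and 3081 ± 71.0 in WT03M, between 0.612 and 0.714% of all messenger FPKM in a library. The groups overlapped in this sum. Per unit of length, Psmb1 of the beta ring had the highest mean level over the 20 libraries, at 144 FPKM, followed by Psmb6 at 138, Psmb4 at 136 and Psmb7 and the ATPase Psmc1 at 135 each. The median level was 94.2 FPKM over the 8 alpha ring genes, 135 over the 7 constitutive beta ring genes, 99.9 over the 6 ATPases and 57.7 over the 11 other subunits of the regulatory particle. Assembly chaperones were lower, with medians of 15.6 FPKM for the 3 of the regulatory particle and 13.7 FPKM for the 4 of the core, and the inhibitor Psmf1 was at 11.4 FPKM.

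The inducible catalytic subunits did not share 1 level. Psmb10 averaged 28.8 FPKM, Psmb8 3.53 FPKM and Psmb9 1.18 FPKM over the 20 libraries. By description, Psmb10 stood at 23.7 ± 1.99% of Psmb7 in TG10M, 21.2 ± 2.02% in TG03M, 19.8 ± 2.33% in WT10M and 20.2 ± 0.987% in WT03M. Psmb8 stood at 6.70 ± 3.27% of Psmb5 in TG10M, 3.68 ± 0.866% in TG03M, 3.63 ± 1.1% in WT10M and 2.81 ± 0.427% in WT03M. This ratio overlapped at 10 months, at 3.82 to 12.2% in TG10M and 2.83 to 5.55% in WT10M. TG10M replicate 1 and WT10M replicate 5, both among the 3 libraries that stood apart, gave the highest values of their groups. Psmb9 stood at 1.06 ± 0.420% of Psmb6 in TG10M, 0.782 ± 0.203% in TG03M, 0.902 ± 0.176% in WT10M and 0.661 ± 0.0871% in WT03M.

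Of the 50 genes 3 fell under the filter and were not tested. Psma8, the alpha subunit of testis, averaged 0.234 FPKM, Psmb11, the catalytic subunit of the thymus, 0.0749 FPKM, and Psme2b, a copy of the activator gene Psme2, 0.287 FPKM. The other 47 passed. Psme2b is similar in sequence to Psme2, so fragments of the pair could have been divided between them.

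**Figure D1:**
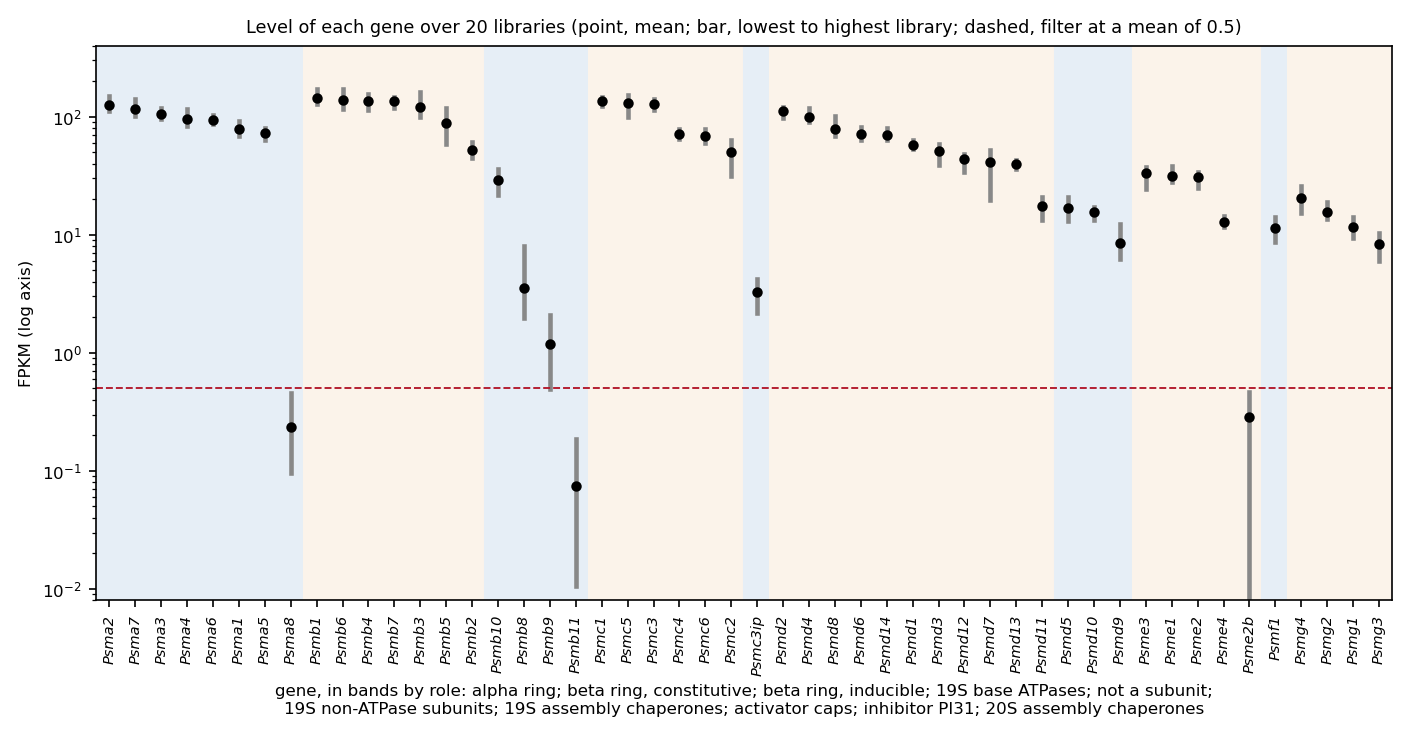
Mean FPKM of the 50 genes over 20 libraries on a log axis, in bands by role, with a bar from the lowest to the highest library; a bar that reaches the lower edge includes a library listed at 0. The inducible subunits Psmb8 and Psmb9 lie more than a factor of 10 below Psmb5 and Psmb6, and Psma8, Psmb11 and Psme2b lie under the filter at 0.5.

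At 10 months Psmb8 was the only member called between the genotypes, and it was higher in transgenic cortex. Psmb8 (ENSMUSG00000024338; GRCm38 chromosome 17, 34197721 to 34201454, plus strand), the inducible replacement of Psmb5, lies in the MHC region. It had 8.01, 4.42, 6.02, 4.03 and 4.96 FPKM in TG10M, against 3.59, 2.60, 2.79, 3.07 and 3.44 FPKM in WT10M. Every TG10M library was above every WT10M library. The means were 5.49 ± 1.59 FPKM in TG10M and 3.10 ± 0.421 FPKM in WT10M. Psmb8 rose by 0.71 (SE 0.16, 95% interval 0.38 to 1.03, adjusted p = 0.0422, limma), a fold of 1.63 on the scale of FPKM + 0.5, which understates the change of low genes. An estimate from the depth puts Psmb8 at 64 to 285 fragments per library, so counting error is a visible part of its spread.

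Of the 47 tested members, 1 was called higher and 0 lower at 10 months, where 0.583% of all tested genes were called higher and 0.051% lower. Before adjustment, 4 members were higher and 2 lower at a limma p under 0.05, which is 12.8% of the members, against 14.1% of all tested genes. Over members the median difference was 0.043, against 0.0006 over all tested genes. It moved with single libraries, to 0.016 without TG10M replicate 5, 0.019 without WT10M replicate 2, 0.027 without WT10M replicate 4 and 0.079 without WT10M replicate 5.

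The call of Psmb8 at 10 months depended on single libraries and on the fit. With the difference unchanged at 0.71 it ended with no filter (adjusted p = 0.0588) and with the compared groups alone (adjusted p = 0.150). It also ended without TG10M replicate 1, 3 or 5 or WT10M replicate 1, 2, 3 or 4, with adjusted p from 0.0700 to 0.143, and the difference stayed between 0.57 and 0.80. Without the 3 libraries that stood apart it was 0.59 (SE 0.17, adjusted p = 0.0782), the groups still did not overlap, and the difference within those 3 libraries was 0.79.

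Neither of the other inducible subunits was called at 10 months. Psmb9 (ENSMUSG00000096727; chromosome 17, 34181987 to 34187764, minus strand) had 2.07, 1.80, 1.84, 0.491 and 1.70 FPKM in TG10M, against 1.18, 1.46, 0.990, 0.979 and 1.34 FPKM in WT10M. Of the TG10M libraries 4 lay above every WT10M library, while replicate 4 lay below them all. The difference was 0.23 (SE 0.20, 95% interval -0.18 to 0.64, adjusted p = 0.596), and 0.09 (adjusted p = 0.905) without the 3 libraries that stood apart. Its RefSeq start is 226 bases from that of Tap1, a peptide transporter gene read in the opposite direction.

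Psmb10 (ENSMUSG00000031897), the inducible replacement of Psmb7, had 36.2, 34.1, 28.2, 30.2 and 35.6 FPKM in TG10M, against 24.2, 21.7, 24.4, 27.3 and 33.4 FPKM in WT10M. WT10M replicate 5, at 33.4 FPKM, was the only WT10M library within the TG10M range. Psmb10 differed by 0.33 (SE 0.09, 95% interval 0.14 to 0.52, adjusted p = 0.111). Without the 3 libraries that stood apart the same difference, 0.33 (SE 0.07), had an adjusted p of 0.0277, while within those 3 libraries it was 0.10.

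The constitutive counterparts were not called at 10 months. Psmb5 (ENSMUSG00000022193) had 65.7, 115.7, 91.0, 86.9 and 79.6 FPKM in TG10M, against 111.3, 91.6, 90.6, 88.9 and 62.0 FPKM in WT10M. The groups overlapped over most of their range, with a difference of -0.02 (SE 0.17, 95% interval -0.37 to 0.34, adjusted p = 0.970). Psmb6 averaged 149 ± 15.5 FPKM in TG10M and 133 ± 14.7 FPKM in WT10M, a difference of 0.17 (SE 0.08, adjusted p = 0.341). Psmb7 averaged 138 ± 3.91 FPKM in TG10M and 132 ± 10.1 FPKM in WT10M, a difference of 0.07 (SE 0.06, adjusted p = 0.577).

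**Figure D2:**
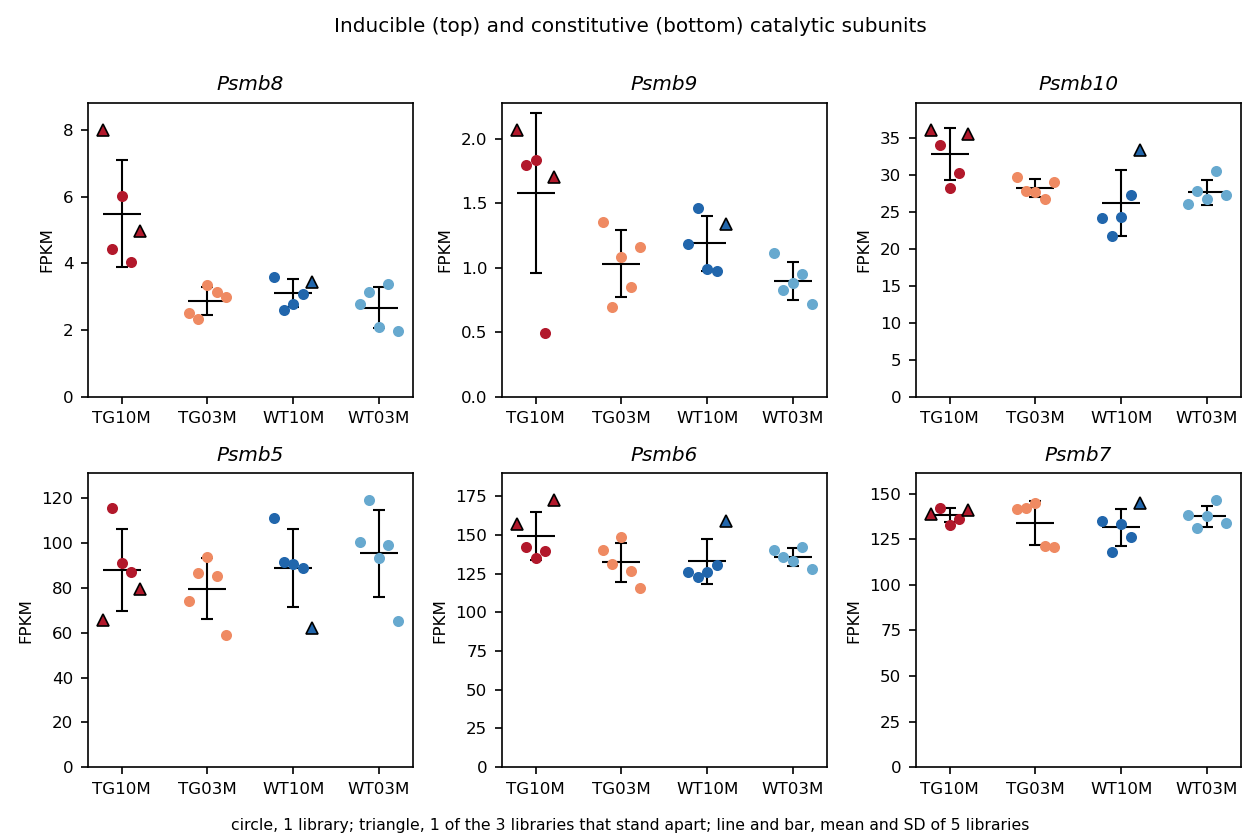
FPKM of the inducible subunits Psmb8, Psmb9 and Psmb10 and their constitutive counterparts Psmb5, Psmb6 and Psmb7 in each library, from 0, with the mean and SD of 5 libraries; triangles are the 3 libraries that stood apart. Psmb8 lies between 4.03 and 8.01 FPKM in TG10M and at or below 3.59 FPKM in WT10M, while the groups overlap for the other 5 genes.

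Psmb8 also rose with age in transgenic cortex, where 1 of 47 members was called higher and 0 lower, against 0.641% and 0.204% of all tested genes. TG03M libraries had 2.52, 2.32, 3.35, 3.14 and 2.98 FPKM, all below the lowest TG10M library. The rise in TG10M over TG03M was 0.80 (SE 0.16, 95% interval 0.48 to 1.13, adjusted p = 0.0156). It kept its call without each library of these groups in turn, with a highest adjusted p of 0.0498. Without the 3 libraries that stood apart it was 0.65 (adjusted p = 0.0924). TG10M libraries serve in this comparison and in that with WT10M. Over all 47 tested members, Psmb8 was the only one whose TG10M and TG03M groups did not overlap, where 1.84% of all tested genes lay apart higher and 1.57% lower. Without the 3 libraries 0 members were called here in limma, where 0.466% of all tested genes were called higher and 0.0656% lower.

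Psmb8 was not called at 3 months or with age in wild-type cortex. WT03M libraries had 2.78, 3.14, 2.10, 3.37 and 1.97 FPKM and overlapped TG03M. The differences were 0.10 (95% interval -0.23 to 0.43, adjusted p = 0.869) for TG03M against WT03M and 0.20 (95% interval -0.13 to 0.52, adjusted p = 0.885) for WT10M against WT03M. The genotype difference at 10 months exceeded that at 3 months by 0.61 (SE 0.22), with a limma p of 0.0129 before and 0.962 after adjustment, so a change of the genotype difference with age was not shown. Without the 3 libraries that stood apart it was 0.49 (adjusted p = 0.796).

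The table lists 2 Psmb8 transcripts, and neither was called by itself. ENSMUST00000173441, of 840 bases, averaged 3.21 ± 1.25 FPKM in TG10M and 1.36 ± 0.50 FPKM in WT10M, a difference of 0.97 (SE 0.31, adjusted p = 0.273 over 24698 transcripts). ENSMUST00000025196, of 1628 bases, averaged 2.28 ± 0.859 FPKM in TG10M and 1.73 ± 0.190 FPKM in WT10M, a difference of 0.26 (SE 0.21, adjusted p = 0.684). Assignment of fragments between the overlapping transcripts is an estimate of the authors' quantification. Of the 69 member transcripts tested, 0 were called in each of the 5 comparisons.

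Markers of several cell types moved in the same comparison. Of the microglia markers reported here, Cd68, a lysosomal protein of phagocytes, was called higher at 10 months, at 6.68 ± 1.19 FPKM in TG10M and 3.64 ± 0.194 FPKM in WT10M (0.78, adjusted p = 0.00410). Cx3cr1 (0.21, adjusted p = 0.107), Csf1r (0.28, adjusted p = 0.0743), Tmem119 (0.28, adjusted p = 0.167), P2ry12 (0.30, adjusted p = 0.319), Aif1 (0.36, adjusted p = 0.301) and Itgam (0.05, adjusted p = 0.819) were above 0 and not called. With age in transgenic cortex Cx3cr1 rose by 0.26 (adjusted p = 0.0319) and Aif1 by 0.73 (adjusted p = 0.0260). Among 6 astrocyte markers Gfap, at 1.34 (adjusted p = 0.000134), and Aqp4, at 0.52 (adjusted p = 0.00162), were called higher and the other 4 were not called, Gja1 being below 0 (-0.22, adjusted p = 0.645). The list had summed levels of 789 to 973 FPKM in TG10M, 682 to 851 in TG03M, 667 to 733 in WT10M and 685 to 744 in WT03M. The T cell markers Cd3e, Cd3d, Cd3g and Cd8a summed to 0.0117 to 0.300 FPKM (median 0.0647) in TG10M and 0.0136 to 0.122 FPKM (median 0.0716) in WT10M. At 3 months they summed to 0 to 0.116 FPKM in TG03M and 0 to 0.0539 FPKM in WT03M. All 4 lay under the filter and were not tested. Of the mural cell markers Vtn was higher by 0.58 (adjusted p = 0.0237), the only one of 3 called. Of 6 oligodendrocyte markers 0 were called in limma and 4 were at a p under 0.05 before adjustment, against 14.1% of all tested genes. Their summed levels were 1476 to 1611 FPKM in TG10M and 1211 to 1557 in WT10M. The striatal markers Drd1, Drd2, Adora2a and Ppp1r1b had a median difference of -0.66, with 0 called. Of these 4, 3 were at a limma p under 0.05 before adjustment, against the same 14.1% of all tested genes. They summed to 54.6 to 119 FPKM in TG10M, 58.0 to 143 in TG03M, 101.3 to 165.5 in WT10M and 56.5 to 144 in WT03M. The part of these markers in the Psmb8 result was not tested. In tissue, fewer cells of a type and less RNA per cell cannot be told apart.

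Genes that act beside the immunoproteasome were followed as a list of 14 genes of class I antigen processing, 13 of them tested. At 10 months 1 was called higher and 0 lower, with a list median of 0.22. This was H2-D1, a class I heavy chain, at 34.6 ± 5.93 FPKM in TG10M and 21.4 ± 3.12 FPKM in WT10M (0.68, SE 0.11, adjusted p = 0.00410). With age in transgenic cortex 3 were called higher and 0 lower, H2-D1 by 0.66 (adjusted p = 0.00461), the class I heavy chain H2-K1 by 0.66 (adjusted p = 0.0155) and Tap1, the neighbour of Psmb9, by 0.65 (adjusted p = 0.00956). Tap1 averaged 1.86 ± 0.408 FPKM in TG10M and 1.30 ± 0.0783 FPKM in WT10M, a difference that was not called (0.38, adjusted p = 0.156). The interferon-responsive factor Irf1 was not called at 10 months either, at 0.28 (adjusted p = 0.194). At 3 months and with age in wild-type cortex 0 of the 13 were called in limma. Before adjustment 7 of the 13 were at a p under 0.05 at 10 months, against 14.1% of all tested genes, and 1 at 3 months, against 10.6%. With age there were 6 in transgenic cortex, against 16.1%, and 2 in wild-type cortex, against 6.72%.

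Short sequences before the gene starts were searched because 2 classes of factor are known to control these genes. Interferon acts through the GAS motif, TTCNNNGAA, and through the ISRE, taken as a pair of GAAA blocks with any 2 bases between, while Nrf factors act at the antioxidant element, TGACNNNGC. The 250 bases before the RefSeq start (GRCm38.p6) were read on both strands for 42 of the 50 genes, in 45 windows. The GAS letters stood in 2 member windows (4.44%, against 7.02% of 32851 windows in all), those of Psmb8 and Psmg1. The ISRE letters stood in 3 (6.67%, against 2.98%), those of Psmb3, Psmd4 and Psmd9. Windows of the inducible subunits Psmb9 and Psmb10 held neither. The antioxidant letters stood in 5 member windows (11.1%, against 10.2%), and the general CCAAT box in 15 (33.3%, against 33.8%). The matches of Psmb8 and of the core chaperone Psmg1 to the GAS, and those of the constitutive subunits Psmb5 and Psmb6 to the antioxidant element, are shown with their flanks, 5′ to 3′ on the gene's strand, with the match in capitals.
Psmb8, chr17:34198088-34198117, plus strand: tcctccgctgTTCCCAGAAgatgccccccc
Psmg1, chr16:95991181-95991210, minus strand: actcatgTTCTCTGAAtccgcttgcagtca
Psmb5, chr14:54618023-54618052, minus strand: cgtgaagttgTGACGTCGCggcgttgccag
Psmb6, chr11:70525327-70525356, plus strand: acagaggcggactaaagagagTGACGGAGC
The match lies 97 bases before the start in Psmb8, 243 in Psmg1, 47 in Psmb5 and 9 in Psmb6. A GENCODE transcript of Psmb8 starts further upstream, so its match also lies within annotated transcript. Such a match is a description and not a site in use.

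Outside the catalytic beta subunits 0 members were called between the genotypes at 10 months. In the alpha ring, which gates the core, 5 of 7 tested genes were above 0, against 50.2% of all tested genes. The 7 lay between -0.02 for Psma6 and 0.14 for Psma1 (82.6 ± 6.64 FPKM in TG10M and 74.8 ± 7.30 FPKM in WT10M, adjusted p = 0.294). The 6 ATPases of the regulatory particle lay between -0.24 for Psmc2 and 0.08 for Psmc4. Its 11 other subunits lay between -0.31 for Psmd7 (adjusted p = 0.523), the partner of the deubiquitinase Psmd14, and 0.19 for Psmd8. Psmd7 was at -0.18 (adjusted p = 0.120) without the 3 libraries that stood apart, at -0.18 without TG10M replicate 1, at -0.16 without TG10M replicate 5, and at -0.56 (adjusted p = 0.0384) without WT10M replicate 5. Among the 3 chaperones that assemble its base, Psmd5 was at 0.15 (18.4 ± 1.90 FPKM in TG10M and 16.6 ± 2.05 FPKM in WT10M, adjusted p = 0.473).

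The activators and the inhibitor were not called either. Psme1 and Psme2 form the interferon-inducible activator cap. Psme1 averaged 32.7 ± 4.01 FPKM in TG10M and 31.4 ± 3.40 FPKM in WT10M, a difference of 0.06 (95% interval -0.12 to 0.24, adjusted p = 0.783). Psme2 averaged 32.0 ± 0.964 FPKM in TG10M and 31.4 ± 1.89 FPKM in WT10M, a difference of 0.02 (95% interval -0.10 to 0.15, adjusted p = 0.877). For Psme3, the nuclear activator, the difference was -0.14 (adjusted p = 0.503), or -0.06 without the 3 libraries, and for the inhibitor Psmf1 0.07 (adjusted p = 0.731). Of the 4 core chaperones 3 were below 0, Psmg1 by the most, at 10.7 ± 1.08 FPKM in TG10M and 12.2 ± 0.957 FPKM in WT10M (-0.19, adjusted p = 0.351). Psmc3ip, which is no subunit, was at -0.07 (adjusted p = 0.844).

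At 3 months 0 of 47 members were called in limma, where 0.277% of all tested genes were called higher and 0.0219% lower. Before adjustment 2 were higher and 5 lower at a p under 0.05, 14.9% of members against 10.6% of all tested genes. The median difference was -0.035 over members and -0.002 over all tested genes, and 31.9% of members were above 0, against 49.2% of all tested genes. All 4 core chaperones and all 7 alpha ring genes were below 0, as they also were in WT10M against WT03M. The WT03M libraries serve in both comparisons, so these signs are not independent. Psmg4, a core chaperone, had the smallest p, at 18.4 ± 1.32 FPKM in TG03M and 22.6 ± 2.21 FPKM in WT03M (-0.29, SE 0.11, adjusted p = 0.311).

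**Figure D3:**
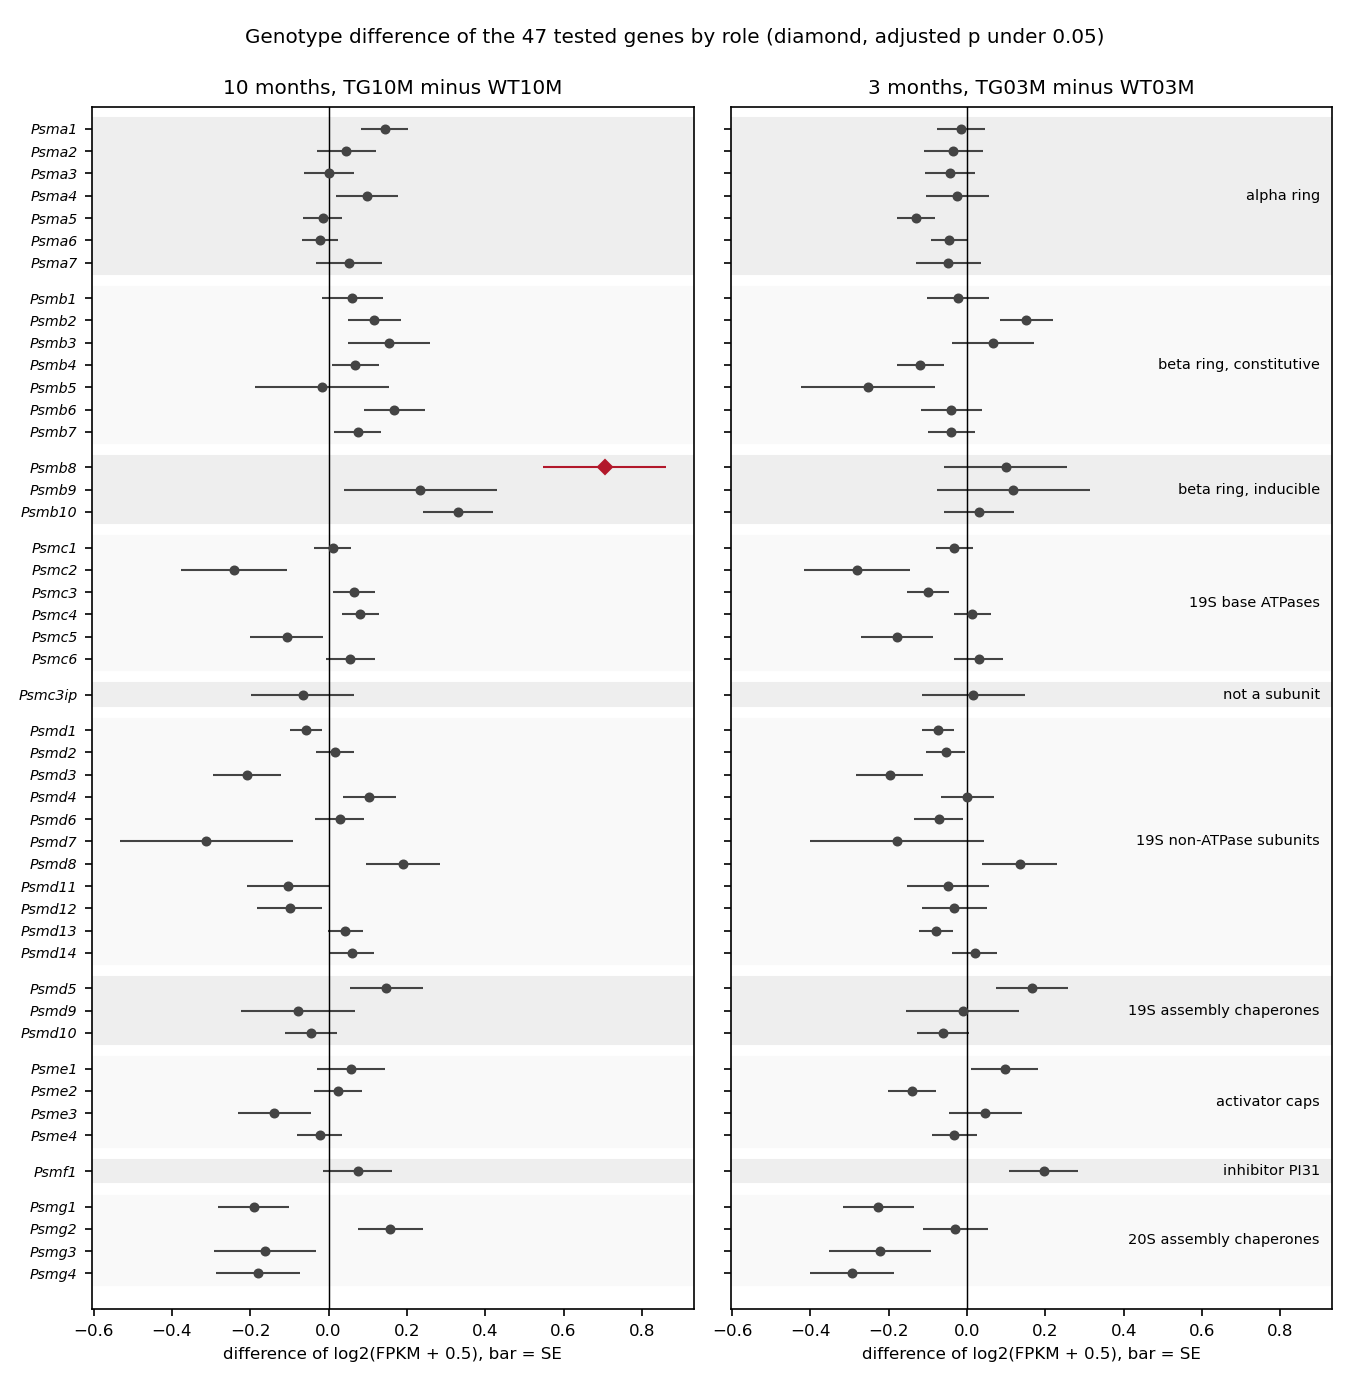
Difference of log2(FPKM + 0.5) with its SE for the 47 tested genes by role, TG10M minus WT10M on the left and TG03M minus WT03M on the right. Psmb8 at 10 months, at 0.71, is the only gene marked as called; the other genes lie between -0.31 and 0.33.

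The 3 libraries that stood apart differed from the 17 others in many proteasome genes, in both directions. All 3 lay below every other library for 10 of 47 tested members and above for 14, which is 21.3 and 29.8% of members, against 14 and 9.19% of all tested genes. Psmd7 had 19.7 to 21.7 FPKM in the 3 libraries, against 38.9 to 51.6 FPKM in the others. The ATPase genes Psmc2 and Psmc5 also lay below, at 31.4 to 34.2 and 98.9 to 102 FPKM, against 44.4 to 62.8 and 121 to 152 FPKM. Psme3 had 24.6 to 25.5 FPKM in the 3, against 31.5 to 37.2 FPKM. Above the others lay Psmd8, at 94.2 to 102 FPKM against 68.0 to 83.7 FPKM, the ubiquitin receptor Psmd4, at 117 to 118 FPKM against 89.9 to 104 FPKM, and Psmb3 of the beta ring, at 152 to 160 FPKM against 99.96 to 130.1 FPKM. The regulatory particle thus had messengers below (Psmc2, Psmc5, Psmd7) and above (Psmd4, Psmd8) the other libraries.

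Without these 3 libraries 4 members were called at each age between the genotypes. At 10 months Psmb10 and Psmd8 were higher and Psmd3 and Psmc2 lower, where 1.28% of all tested genes were called higher and 1.09% lower. At 3 months Psmd8 was higher and Psmd3, Psmc2 and Psmc5 lower, where 1.53% of all genes were called higher and 1.92% lower. The 3-month libraries are the same in both fits, and only the shared estimate of the spread differs.

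Psmc2 (ENSMUSG00000028932), an ATPase of the base, had 47.9, 46.7 and 49.5 FPKM in the 3 TG10M libraries that remained, against 54.0, 58.9, 55.5 and 53.4 FPKM in the 4 WT10M libraries. At 3 months it had 51.2, 44.4, 51.1, 49.0 and 51.1 FPKM in TG03M, against 62.8, 58.1, 58.2, 60.5 and 60.5 FPKM in WT03M. The groups did not overlap at either age. At 10 months this rests on 3 against 4 libraries, for which the share of all tested genes set apart was not computed. The differences in this fit were -0.20 at 10 months (SE 0.05, adjusted p = 0.0454) and -0.28 at 3 months (SE 0.04, adjusted p = 0.00133). With all 20 libraries the values were -0.24 (adjusted p = 0.425) and -0.28 (adjusted p = 0.477).

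Psmd3 (ENSMUSG00000017221), a subunit of the lid, had 50.6, 46.7 and 48.4 FPKM in those TG10M libraries, against 53.5, 54.6, 58.9 and 56.8 FPKM in WT10M. TG03M libraries had 50.0, 47.9, 50.8, 47.3 and 48.2 FPKM, against 56.1, 58.0, 54.3, 55.1 and 57.0 FPKM in WT03M. Again the groups did not overlap at either age, with the same limit at 10 months. Psmd3 differed by -0.20 at 10 months (SE 0.04, adjusted p = 0.0194) and by -0.20 at 3 months (SE 0.03, adjusted p = 0.00410), and with all libraries it was at -0.21 (adjusted p = 0.289) and -0.20 (adjusted p = 0.418).

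Psmd8 (ENSMUSG00000030591), also of the lid, had 76.2, 73.8 and 79.4 FPKM in those TG10M libraries, against 68.0, 69.1, 68.3 and 68.8 FPKM in WT10M. At 3 months it had 78.4, 79.6, 82.6, 83.7 and 81.3 FPKM in TG03M, against 71.7, 75.4, 73.1, 78.1 and 71.1 FPKM in WT03M. Every remaining TG library was above every remaining WT library of its age, with the same limit at 10 months. It was higher by 0.16 at 10 months (SE 0.04, adjusted p = 0.0421) and by 0.13 at 3 months (SE 0.03, adjusted p = 0.0272). With all libraries it was at 0.19 (adjusted p = 0.375) and 0.13 (adjusted p = 0.656). Psmc5 was lower at 3 months alone in that fit, at 129 ± 5.25 FPKM in TG03M and 147 ± 4.07 FPKM in WT03M (-0.18, SE 0.03, adjusted p = 0.00340), against -0.04 at 10 months (adjusted p = 0.671).

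The signs of Psmc2, Psmd3 and Psmd8 between the genotypes were those of the 3 libraries against the 17 others. mt-Co1, a mitochondrially encoded messenger, ran the same way, with 11182 to 13045 FPKM in the 3 libraries, 8514 to 10633 FPKM in the 8 other TG libraries and 5998 to 6915 FPKM in the 9 other WT libraries. The chaperone messenger Hsp90aa1 was at 13.9 to 16.6 FPKM in the 3 libraries and at 16.2 to 20.5 FPKM in TG03M replicates 2 to 5, against 532 to 687 FPKM in the other 13. Its part in the 3-month differences was not tested. The labels give no batch, and genotype and what mt-Co1 tracks cannot be told apart in the 17 libraries. Over all 47 tested members the 20 libraries gave non-overlapping groups for 2 higher (Psmb2 and Psmd8) and 4 lower (Psmc2, Psmc5, Psmd3 and Psmd7) at 3 months, against 2.01 and 2.47% of all tested genes. At 10 months they gave 1 higher (Psmb8) and 0 lower, against 1.65 and 0.729%.

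**Figure D4:**
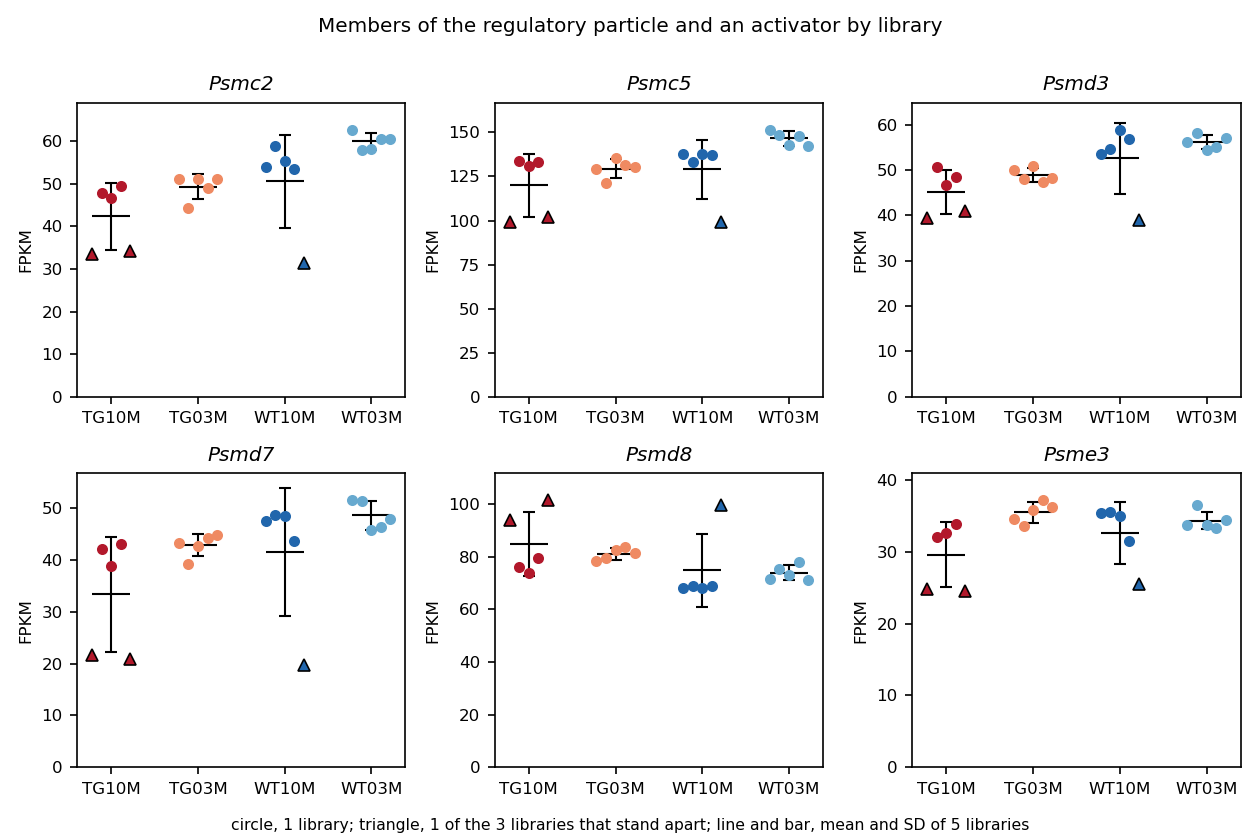
FPKM of Psmc2, Psmc5, Psmd3, Psmd7, Psmd8 and Psme3 in each library, from 0, with the mean and SD of 5 libraries; triangles are the 3 libraries that stood apart. The triangles lie below all circles in 5 panels and above them for Psmd8. For Psmc2, Psmd3, Psmd7 and Psmd8 the circles of TG and WT do not overlap within an age. At 10 months this rests on 3 TG and 4 WT circles, and the share of all tested genes set apart in these libraries was not computed.

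With age in wild-type cortex 0 of 47 members were called in limma, where 0.051% of all tested genes were called higher and 0.0146% lower. Before adjustment 0 were higher and 3 lower at a p under 0.05, 6.38% of members against 6.72% of all genes, and without the 3 libraries that stood apart 0 were called, where 0.0656% of all genes were called higher and 0.0146% lower. Psmc5 was the only member whose groups did not overlap, at 129 ± 16.9 FPKM in WT10M and 147 ± 4.07 FPKM in WT03M, where 0.86% of all tested genes lay apart higher and 0.794% lower. WT10M replicate 5, one of the 3 libraries that stood apart, had 99.0 FPKM of Psmc5. The other WT10M libraries had 133 to 138 FPKM, against 142 to 152 FPKM in WT03M. In transgenic cortex 5 members were higher and 2 lower with age before adjustment, 14.9% against 16.1% of all genes. Psme3 was one of the 2, at 29.6 ± 4.51 FPKM in TG10M and 35.5 ± 1.45 FPKM in TG03M (-0.27, adjusted p = 0.169), and without the 3 libraries it was at -0.11. In the interaction of genotype and age 0 were called in limma, where 0.0364% of all genes were called higher and 0% lower. Psmb10, Psmb4, Psmb8 and Psmc3 were higher at a p under 0.05 before adjustment, 8.51% of members against 5.04% of all genes. Without the 3 libraries 0 were called, where 0.0292% of all genes were called higher and 0% lower.

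Other genes of the ubiquitin pathway gave 0 calls in any of the 4 comparisons of genotype and age. Of all tested genes, 0.583% were called higher and 0.051% lower at 10 months, and 0.277 and 0.0219% at 3 months. With age the shares were 0.051 and 0.0146% in wild-type cortex and 0.641 and 0.204% in transgenic cortex. At 10 months the counts at a limma p under 0.05 before adjustment were 0 of 11 proteasome-associated factors, 3 of 9 genes that control proteasome transcription, 1 of 8 shuttle and extraction factors and 1 of 15 conjugating enzymes and ligases. Of all tested genes 14.1% were at such a p at 10 months. In the same order the counts were 1, 1, 1 and 2 at 3 months, against 10.6% of all tested genes. With age they were 1, 0, 1 and 0 in wild-type cortex, against 6.72%, and 1, 0, 1 and 6 in transgenic cortex, against 16.1%. The smallest p of each list at 10 months belonged to the deubiquitinase Usp14 (-0.09, adjusted p = 0.398), the stress factor Nfe2l2 (0.31, adjusted p = 0.155), the ubiquitin receptor of autophagy Sqstm1 (0.12, adjusted p = 0.291) and the ligase Huwe1 (-0.18, adjusted p = 0.338). Nfe2l1, the Nrf factor that restores proteasome genes when the protease is inhibited, averaged 72.2 ± 11.1 FPKM in TG10M and 82.4 ± 15.5 FPKM in WT10M (-0.18, adjusted p = 0.482).

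The median SD within groups was 0.131 over members and 0.144 over all tested genes on the log2 scale. Psmd1, a scaffold of the regulatory particle, had the smallest SD, at 0.055. Psmd7, at 0.38, Psmb9, at 0.33, Psmb5, at 0.30, and Psmb8, at 0.26, had the largest. Psmb5 ranged from 58.9 to 119.1 FPKM over the 20 libraries, with TG03M replicate 5 lowest and WT03M replicate 2 highest.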

How the data were processed

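Messenger RNA was measured by sequencing in cortex of 20 libraries, 5 in each of 4 groups. The authors deposited FPKM per transcript, with a gene identifier and symbol, per the file headers. The submitters' processing notes name GRCm38, mm10, CASAVA, TopHat2 and Cuffdiff among others, with no role or version. Transcripts were summed per gene, and 27 symbols that a spreadsheet had turned into dates were restored. Sums were tested as log2(FPKM + 0.5) in limma 3.58.1 (R 4.3.3), in 1 fit over the 4 groups with a trended prior and 16 residual degrees of freedom, with Benjamini-Hochberg adjustment over 13722 genes. The depth is an estimate, from 81.2 to 93.5% of low values lying within 0.1 of a whole multiple in 1815 genes with 1 transcript above 4000 bases.

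Gene positions come from GENCODE M21 (GRCm38) and sequences from RefSeq (GRCm38.p6). The rule for named members gave 16 genes: the catalytic subunits, Psme1, Psme2, every member called, and in each role the member with the largest absolute difference at 10 months. Of other pathway genes, those called or else the one with the smallest p were named. All other named genes, such as Psmc5, Psmd3, Psmd8, Psmb2, Irf1 and Nfe2l1, were chosen after their values were seen. The members and lists were chosen with earlier results of these data known. Alternatives changed the pseudocount, filter, scaling, weights, prior, samples fitted, replicate block, and summing of transcripts, and left out each library. Results of some marker and pathway genes are not reported here.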

Additional observations from a re-analysis of the deposited data

Results flagged for a closer look

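In 84 groups of 5 libraries examined, 9 held a library far from the rest by Dixon's test, which chance does in about 1 independent group in 20. These groups share libraries, and 4 of their genes were chosen after their values were seen, so that rate is no measure for the 9. WT10M replicate 5, one of the 3 libraries that stood apart, gave 7 of the 9. It was high for Psmb6 at 158.7 FPKM (next 130.4), Psme1 at 37.44 FPKM (next 30.36) and Psmd8 at 99.84 FPKM (next 69.05). It was low for Psmc2 at 31.43 FPKM (next 53.41), Psmd7 at 19.7 FPKM (next 43.71), Psmc5 at 99.03 FPKM (next 133.5) and Psmd3 at 39 FPKM (next 53.55).

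TG10M replicate 4 was low for Psmb9, at 0.4911 FPKM (next 1.703). Without it Psmb9 was higher in TG10M than in TG03M by 0.64 (adjusted p = 0.025, limma), against 0.39 (adjusted p = 0.337) with it. WT03M replicate 4 had the highest summed level of proteasome genes in its group, at 3207 FPKM (next 3055).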

How the results depend on the processing

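The count of members called between TG10M and WT10M, 1 with all libraries, was 0 with no filter, 0 with a replicate block, 0 with the compared groups alone and 0 with each transcript by itself. It was 4 with array weights (Psmb8, Psmb10, Psmd8 and Psmd3) and 4 without the 3 libraries that stood apart, an alternative chosen after seeing the data. Leaving out 1 library gave 0 to 10, and the 10 came without WT10M replicate 5, which leaves the libraries that stand apart in TG10M only. Over all genes the calls of that comparison numbered 87, 945 with array weights, 326 without the 3 libraries, 93 with no filter, 72 with the replicate block, 16 with the compared groups alone, and 28 to 1600 without 1 library. Between TG03M and WT03M, 0 became 3 with the compared groups alone (Psmd3, Psmc5 and Psmc2) and 4 without the 3 libraries, while calls over all genes went up to 221 and 473, against 41. Between TG10M and TG03M, 1 became 0 with the compared groups alone, 0 without the 3 libraries and 0 with each transcript by itself, and leaving out 1 library gave 1 to 2. The cause was not tested. Counts of 0 between WT10M and WT03M and in the interaction stayed at 0 in each alternative run. No named gene's called difference changed sign.

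Over the 4 groups replicate numbers did not pair the libraries. Deviations of 30 pairs with the same number correlated at -0.42 to 0.66 (median -0.03), and 5 exceeded 0.1. In 120 pairs with different numbers they correlated at -0.50 to 0.50 (median -0.002), and 24 exceeded 0.1. Between TG10M and WT10M the values were -0.17, -0.02, 0.27, 0.18 and 0.66 for replicates 1 to 5, and both replicates 5 stood apart. With the replicate block Psmb8 was still at 0.71 but had adjusted p = 0.0651 between TG10M and WT10M, and the count of members called there was 0. Depth limits the low genes: estimates are 64 to 285 fragments per library for Psmb8 and 16 to 78 for Psmb9.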
